A study of Mus musculus with 8 samples.

Results

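Islet cells marked as descendants of glucagon-expressing cells but with an active insulin reporter, which the labels call transdifferentiated, were compared with alpha cells of the same kind of mouse. The comparison took 5 of the 8 libraries of the series, 2 of transdifferentiated cells and 3 of alpha cells. It took the 8235 of 46955 genes whose expression, as RPKM (reads scaled to gene length and library size), was at least 5 in at least 2 of these 5 libraries. Of the genes nearest to that threshold, Ap1g2 (5.52 RPKM at most) and Ikzf5 (5.31 RPKM at most) lay just inside, while Fhdc1 and 4930453N24Rik, at just under 5 RPKM in the first transdifferentiated library, lay just outside.

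All groups came from islets of adult mice with 3 transgenes: Ins1-H2b-mCherry, a red nuclear protein driven by the insulin 1 promoter, Gcg-cre, a recombinase driven by the glucagon gene, and a floxed YFP allele that the recombinase switches on for good. Alpha cells were sorted for YFP (1 male library without the letter b in its title, 1 male and 1 female library with it) and transdifferentiated cells for both colours (1 male and 1 female library, neither with the letter). Beta cells, sorted for mCherry (3 libraries), shared in the estimate of spread and are given for scale. Islets of 10 to 12 animals were pooled by sex for a group, cultured overnight at 5.5 mM glucose and dissociated with trypsin before the sort. The sources used here do not say whether the alpha sort left out red cells. Both male alpha libraries share a title number, as do both female beta libraries, so each pair may come from 1 pool of mice, and the spread behind the p-values may be partly technical.

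The transdifferentiated libraries were shallow, with 1244156 and 2167199 reads recovered from the deposited values against 12911324 to 14093311 in the alpha libraries. For a gene of 2 kb, 5 RPKM stood for 12.4 and 21.7 reads in the transdifferentiated libraries and for 129.1 to 141.0 reads in the alpha libraries. Of the 2960 genes called below, 521 had at most 50 reads in both transdifferentiated libraries. The median absolute difference between the transdifferentiated libraries ran from 0.14 to 0.25 (log2) over 5 classes of expression level, and between the male alpha libraries from 0.13 to 0.21. These are bulk libraries, in which fewer cells of a type and less RNA per cell cannot be told apart.

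Alpha cells secrete glucagon, which raises blood glucose, and beta cells secrete insulin, which lowers it. The fates are held by different sets of transcription factors, among them Irx1 and Irx2 on the alpha side, and Pdx1, Nkx6-1 and Mafa on the beta side. Beta cells also carry the machinery that couples glucose metabolism to secretion and make large amounts of a secreted protein in the endoplasmic reticulum.

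The hormone genes set the frame of the comparison. The 250 bases before the start of Gcg and of Ins1, the gene whose promoter drives the red reporter, are shown since these promoters stand for the fates compared. Capitals mark TAAT, on either strand, the core letters recognised by many homeodomain proteins such as Pdx1.
Gcg (chr2:62483654-62483903, minus strand): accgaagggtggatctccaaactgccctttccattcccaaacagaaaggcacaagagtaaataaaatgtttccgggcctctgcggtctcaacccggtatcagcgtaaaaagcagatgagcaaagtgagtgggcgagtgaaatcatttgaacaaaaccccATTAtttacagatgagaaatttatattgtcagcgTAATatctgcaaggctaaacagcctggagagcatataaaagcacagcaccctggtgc
Ins1 (chr19:52264047-52264296, plus strand): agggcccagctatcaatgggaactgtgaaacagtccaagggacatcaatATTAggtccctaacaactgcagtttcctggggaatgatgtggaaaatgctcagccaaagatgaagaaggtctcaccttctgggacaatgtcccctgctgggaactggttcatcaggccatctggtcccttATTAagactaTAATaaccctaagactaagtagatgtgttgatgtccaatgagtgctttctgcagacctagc
The sequences are RefSeq's for GRCm38.p6, written 5′ to 3′ on the gene's strand. TAAT occurred 2 times in the Gcg stretch and 3 times in the Ins1 stretch. It is a frequent run of letters, found in 61.4% of 27025 promoter windows of 300 bases and in 45.3% of the 6259 windows that belong to tested genes, and a match is a description of letters only. Promoters of other members are shown where the stress genes are described.

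Gcg, the glucagon gene (chromosome 2, 62474530 to 62483653), was at 19370 and 19100 RPKM in the transdifferentiated libraries and at 196500, 170100 and 172000 RPKM in the alpha libraries. The transdifferentiated libraries agreed closely and held 10.7% of the alpha mean. The log2 fold change was -3.25 (SE 0.51, adjusted p = 0.00269). Gcg made up 2.9% and 2.85% of all reads in transdifferentiated cells and 25.4% to 29.4% in alpha cells. In transdifferentiated cells its level was also above the beta mean of 959 RPKM.

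Ins2, the more abundant of the mouse insulin genes (chromosome 7, 142678656 to 142679726), was at 87120 and 94200 RPKM in transdifferentiated cells and at 1047, 1088 and 820 RPKM in alpha cells. No library of one group came near the other group, and the ratio of means was 92.0 (log2 fold change 6.57, SE 0.26, adjusted p = 5.66e-06). Ins1 was at 20890 and 23090 against 250, 273 and 213 RPKM (log2 fold change 6.52, SE 0.19, adjusted p = 1.37e-06). The cells were sorted for activity of the Ins1 promoter, so the rise of Ins1 describes the sort. Tested with no expression filter, over 24791 genes, Ins2, Gcg and Iapp kept these fold changes but missed the threshold (limma, adjusted p = 0.208, 0.368 and 0.17). Both insulin genes are near-identical copies in part and can share reads. Iapp, which encodes amylin, the peptide released with insulin, was at 31610 and 29920 against 1568, 1811 and 1445 RPKM and rose by 4.29 (SE 0.20, adjusted p = 1.36e-05). Ttr, the transthyretin gene, a carrier of thyroid hormone and retinol, was at 858 and 1030 against 7285, 5251 and 6272 RPKM and changed by -2.73 (SE 0.19, adjusted p = 6.22e-05). Adjusted p-values here and below are limma's with Benjamini-Hochberg adjustment over the 8235 genes. All fold changes were taken as differences of log2(RPKM + 0.5), so those of low genes come out too small.

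Over all 8235 genes, 2453 were called higher in transdifferentiated cells (29.8%) and 507 lower (6.16%), at an adjusted p under 0.05. The split depended on scaling. On the values as deposited the median log2 fold change of all genes was 0.20. With median-ratio scaling it was -0.03, and 1182 genes were higher (14.4%) and 1036 lower (12.6%). With quantile normalization it was -0.04, and 1256 were higher (15.3%) and 1286 lower (15.6%). Gcg, both insulin genes, Iapp, Ttr, Sst, Ppy and Pyy together took 16.1% and 16.5% of the reads in transdifferentiated cells against 26.9% to 31.4% in alpha cells. The part of these 8 genes in the shift was not tested. Small rises are therefore read against the median of 0.20, and counts with median-ratio scaling are given for each group of genes. Genes called the same way as deposited and in both scalings numbered 1164 higher (14.1%) and 504 lower (6.12%). Among the 2453 that rose as deposited, 432 were under 5 RPKM in all alpha libraries and so entered only through the transdifferentiated libraries, where they had to be high, and 155 of the 507 lower genes entered only through the alpha libraries. Among the lists this holds for 12 of the 22 higher genes of beta cell identity, such as Pdx1, Trpm5, Prlr and Mnx1. It holds for 6 of 12 higher receptor genes and for 6 of 20 higher integrated stress response genes, such as Trib3 and Phgdh. It also holds for 3 of 14 higher exocytosis genes (Sytl4, Pclo and Rab3b), and for Pcsk1, Glis3 and Npy. Of the lower genes of alpha cell identity it holds for 3 of 16.

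**Figure D1:**
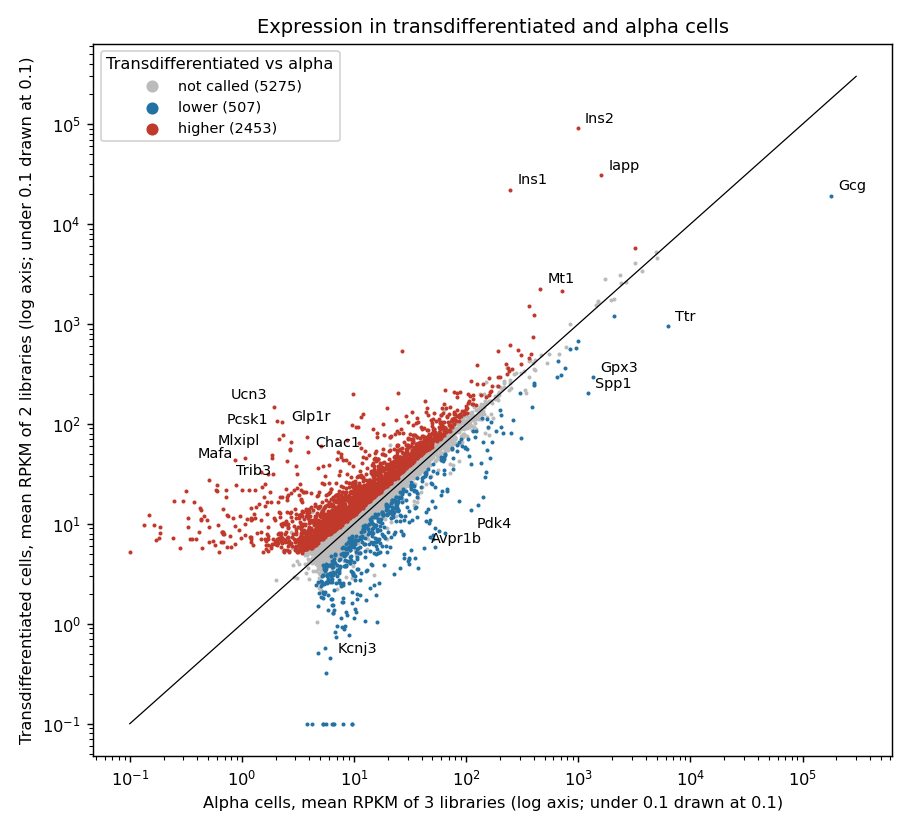
Mean RPKM of the 2 transdifferentiated libraries (vertical log axis) against that of the 3 alpha libraries (horizontal log axis), 1 point for each of the 8235 genes, coloured by call (2453 higher, 507 lower). The insulin genes and Iapp lie far above the line of equality and Gcg and Ttr below it; points under 0.1 RPKM are drawn at 0.1.

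Genes of beta cell identity were higher as a group. Of 24 listed genes 23 were tested, of which 22 rose and 1 fell, against 29.8% and 6.16% of all genes, and Adcyap1 was listed at 0 in every library. Of the 22, 12 passed the expression rule only through the transdifferentiated libraries, where they had to be high. The cells were also sorted on an insulin reporter, so these counts are a description and no test. The median log2 fold change of the 23 was 4.17, and both other scalings gave the same counts. Differences between libraries of the same sex had medians of 4.12 in males and 4.23 in females.

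Peptide and secretion genes led the rises. Ucn3, which encodes urocortin 3, a peptide released with insulin by mature beta cells, was at 163 and 136 RPKM in transdifferentiated cells and at 1.73, 2.07 and 1.97 RPKM in alpha cells (log2 fold change 5.98, SE 0.13, adjusted p = 8.67e-07). Sytl4, whose product granuphilin docks insulin granules at the membrane, was at 39.4 and 47.8 against 0.589, 0.901 and 1.12 RPKM (4.97, SE 0.13, adjusted p = 9.98e-07). Both genes passed the expression rule only through the transdifferentiated libraries, and the largest rises were picked for having no overlap. The gap between the groups is therefore fixed by the choice and is no test. The beta means were 235 RPKM for Ucn3 and 102 RPKM for Sytl4.

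The transcription factor genes of beta cells rose by different amounts. Mafa, a factor of mature beta cells, was at 42.4 and 49.5 RPKM against 1.15, 1.17 and 0.854 RPKM in alpha cells (log2 fold change 4.88, SE 0.20, adjusted p = 6.68e-06), with a beta mean of 132 RPKM. Pdx1, which is needed for the pancreas to form and for insulin expression, was at 67.8 and 64.6 against 3.73, 2.14 and 2.40 RPKM (4.39, SE 0.19, adjusted p = 8.96e-06), with a beta mean of 78.2 RPKM. Nkx6-1, which represses the alpha programme in beta cells, started from a higher alpha level, at 64.3 and 73.7 against 8.00, 9.23 and 8.82 RPKM (2.90, SE 0.11, adjusted p = 5.66e-06). Mnx1, a homeobox gene of developing and adult beta cells, was at 11.1 and 8.61 against 0.138, 0.232 and 0.126 RPKM (3.99, SE 0.18). Mlxipl, which encodes the glucose-responsive factor ChREBP (chromosome 5, 135089890 to 135139768), was the highest relative to beta cells of these, at 85.6 and 55.1 RPKM against 2.10, 1.83 and 2.46 RPKM in alpha cells (4.77, SE 0.30, adjusted p = 4.29e-05) and a beta mean of 22.2 RPKM. The difference from beta cells was not tested here.

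Genes of glucose entry and metabolism were among them. Slc2a2, the glucose transporter gene of rodent beta cells, was at 28.6 and 14.7 against 0.619, 0.751 and 0.801 RPKM (log2 fold change 4.13, SE 0.24, adjusted p = 2.99e-05). The transdifferentiated libraries differed from each other more than for any other gene of the list. Slc2a2 passed the expression rule only through these libraries, so their place above all alpha libraries is fixed by the choice. G6pc2, an islet glucose-6-phosphatase subunit gene that sets the threshold for secretion, was at 480 and 589 against 29.3, 25.5 and 25.4 RPKM (4.27, SE 0.13). Hadh, an enzyme gene of fatty acid oxidation that restrains insulin release, was at 79.3 and 68.2 against 4.62, 3.62 and 3.06 RPKM (4.17, SE 0.13).

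Glp1r is described with the receptors. The remaining genes of the list rose by 1.48 (Nnat, an imprinted gene that aids signal peptide cleavage of insulin) to 4.40 (Prlr, the prolactin receptor gene). Slc30a8, whose product pumps zinc into granules, was the exception. It was at 268 and 218 RPKM against 413, 368 and 415 RPKM in alpha cells and fell by 0.71 (SE 0.14, adjusted p = 0.00639), and its beta mean was 181 RPKM.

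Genes of alpha cell identity were lower as a group. Of 18 listed genes 17 were tested, of which 16 fell and 1 rose, against 6.16% and 29.8% of all genes. The median log2 fold change was -2.49, and both other scalings gave the same counts. Of the 16, 3 passed the expression rule only through the alpha libraries. Differences within sex had medians of -2.41 in males and -2.15 in females. No member of the list was listed at 0 in a transdifferentiated library.

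The alpha transcription factors given here fell by unequal amounts. Irx1 was at 6.43 and 8.94 RPKM against 56.8, 53.4 and 41.6 RPKM (log2 fold change -2.65, SE 0.25), and its relative Irx2 kept more, at 15.4 and 18.1 against 46.0, 52.5 and 49.2 RPKM (-1.56, SE 0.19, adjusted p = 0.000841). Pou3f4, a POU-domain factor gene, was at 1.10 and 1.73 against 9.47, 12.1 and 8.87 RPKM (-2.49, SE 0.31). Its transdifferentiated values rested on 4 and 11 reads, and it passed the expression rule only through the alpha libraries. Etv1, an ETS factor gene, was at 12.6 and 10.7 against 34.3, 36.5 and 39.5 RPKM (-1.64, SE 0.15). For all of these genes both transdifferentiated libraries were below every alpha library and above the beta mean, which was 0.395 RPKM for Irx1 and 0.857 RPKM for Irx2.

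Other alpha genes encode secreted and metabolic proteins. Gpx3, a secreted glutathione peroxidase gene, was at 246 and 337 against 1370, 1252 and 1414 RPKM (log2 fold change -2.28, SE 0.19). Gc, the vitamin D binding protein gene, was at 82.3 and 62.3 against 306, 275 and 342 RPKM (-2.03, SE 0.28). Higd1a, a mitochondrial protein gene induced by low oxygen, was at 8.15 and 8.13 against 52.6, 81.3 and 59.3 RPKM (-2.85, SE 0.20). Rgs4, a brake on G protein signalling, spread more among alpha libraries, at 70.0 and 94.0 against 154, 277 and 322 RPKM (-1.60, SE 0.33, adjusted p = 0.00788), and the groups still did not overlap. Dpp4, whose product cleaves incretin hormones, went the other way, from 8.35, 12.7 and 9.36 RPKM in alpha cells to 22.6 and 22.2 RPKM (1.13, SE 0.18, adjusted p = 0.00293), with a beta mean of 21.8 RPKM.

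The naming rule also picked the 12 largest rises and the 12 largest falls among genes at 10 RPKM or more in the higher group. Beside the identity genes, the rises held Pcsk1, Pdyn, Prss53, Gm4791 and Fam151a. Pdyn, which encodes the precursor of the opioid peptide dynorphin, was at 67.9 and 88.4 RPKM against 3.81, 1.14 and 1.99 RPKM (log2 fold change 4.89, SE 0.37, adjusted p = 0.000104). Prss53, a serine protease gene that overlaps Zfp646 in the annotation, was at 30.9 and 24.6 against 0.689, 0.384 and 0.465 RPKM (4.82, SE 0.20). The library kit keeps no strand, and reads from genes that overlap cannot be told apart. The same holds for Fam151a, which overlaps Acot11 and Mroh7, and for Pdx1 with Plut, Iapp with Slco1a5, Slc2a2 with 1700112D23Rik, Nnat with Blcap, Pcsk1n with Eras, Pcx with Lrfn4, Aars with Ddx19b, Kdelr3 with Ddx17 and Nupr1 with Gm39087. Chromosome positions are those of RefSeq for GRCm38.p6. Gm4791 rested on 10 and 11 reads in the transdifferentiated libraries (26.0 and 16.4 RPKM).

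The falls outside the identity list were Igsf21, Gm20554, Nts, Peg10, Ctxn2, Pdk4, Gfra3, Sfrp5 and Basp1. Igsf21, an adhesion protein gene of synapses, was listed at 0 in the first transdifferentiated library and at 2.10 RPKM (9 reads) in the second, against 17.3, 14.8 and 16.1 RPKM in alpha cells (log2 fold change -3.98, SE 0.52, adjusted p = 0.0011). Nts, the neurotensin gene, was at 1.37 and 5.88 against 18.1, 63.8 and 28.9 RPKM (-3.31, SE 0.61, adjusted p = 0.00505). Its fall rested on 2 and 15 reads and was not called by limma's voom on recovered reads (adjusted p = 0.195). Peg10, an imprinted gene of retrotransposon origin, was at 4.94 and 6.92 against 45.3, 57.2 and 56.4 RPKM (-3.13, SE 0.26). Some falls rested on few reads: Ctxn2 on 1 and 3 reads, and Gm20554, which overlaps Irx2, on 0 and 9 reads. Sfrp5, which encodes a secreted inhibitor of Wnt signalling, was better covered, at 18.6 and 18.7 against 175, 134 and 114 RPKM (-2.83, SE 0.20, adjusted p = 7.57e-05). Gfra3, a receptor subunit gene for the growth factor artemin, was at 4.44 and 4.63 against 33.4, 32.3 and 38.4 RPKM (-2.83, SE 0.14).

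**Figure D2:**
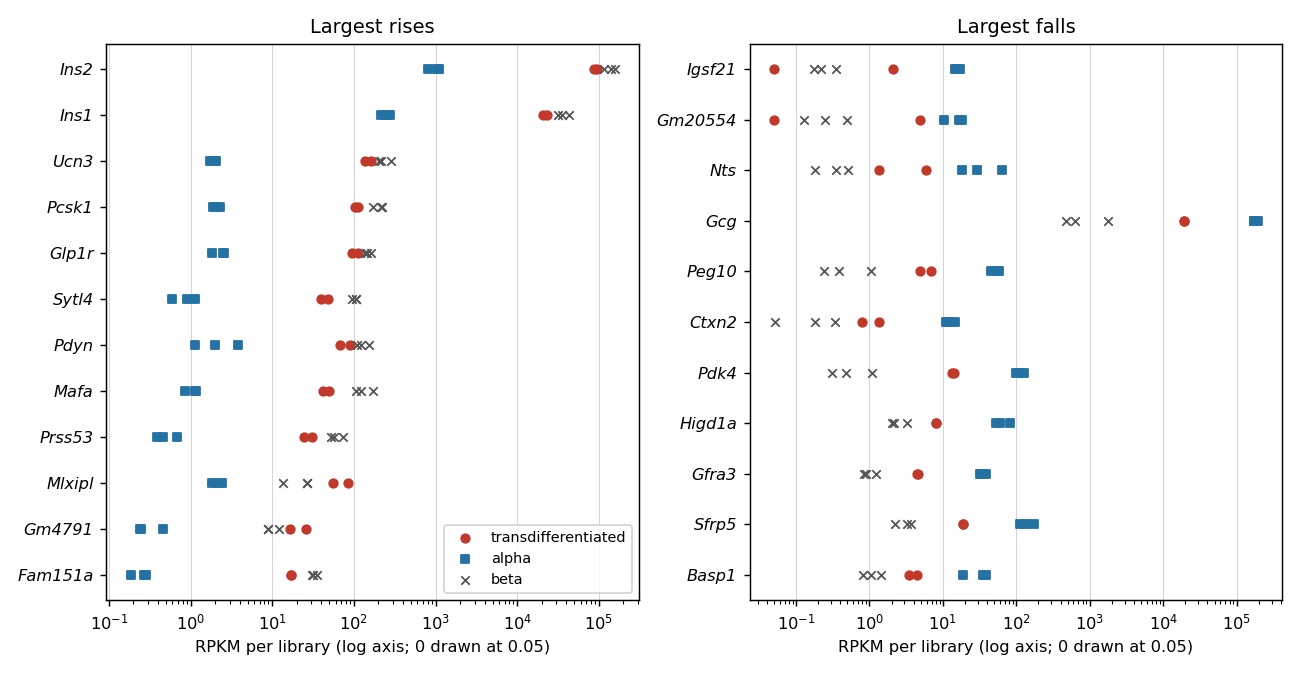
RPKM of each library (log axis) for the largest rises (left) and falls (right) named above in transdifferentiated (circles) against alpha cells (squares), with beta libraries as crosses; values of 0 are drawn at 0.05. The naming rule took only genes whose transdifferentiated and alpha libraries do not overlap, so that gap is fixed by the choice; Mlxipl and Gm4791 lie above the beta libraries as well.

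Transcription factors shared by islet endocrine cells changed far less than the identity factors. Of 30 listed genes 22 passed the expression rule, of which 6 rose, 2 fell (29.8% and 6.16% over all genes) and 14 were not called. The median was 0.11 against 0.20 over all genes. With median-ratio scaling the median was -0.12, and 2 rose and 4 fell (14.4% and 12.6% over all genes). The group thus has no direction that holds across scalings. Glis3, which acts on the insulin gene, was at 8.81 and 7.83 against 2.86, 3.06 and 3.20 RPKM (log2 fold change 1.32, SE 0.13, adjusted p = 0.00036), and Tshz1, a zinc finger gene, rose by 1.06 (SE 0.12). Both rises held with median-ratio scaling. Fev, a factor of serotonergic and endocrine cells, was at 8.95 and 5.71 against 23.2, 20.3 and 20.5 RPKM (-1.46, SE 0.17, adjusted p = 0.00065), and Prox1, a homeobox gene, fell by 0.53 (SE 0.12, adjusted p = 0.0114).

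Several factors found in all endocrine cells were not called. Neurod1 was at 71.5 and 69.0 against 67.8, 85.0 and 87.0 RPKM (-0.20, SE 0.14, adjusted p = 0.315), Isl1 at 68.6 and 64.1 against 52.7, 54.3 and 60.9 RPKM (0.24, SE 0.17, adjusted p = 0.295), and Foxa2 at 38.3 and 39.5 against 40.2, 36.5 and 32.1 RPKM (0.12, SE 0.12, adjusted p = 0.466). Pax6 (0.48, adjusted p = 0.0411), Nkx2-2 (0.40, adjusted p = 0.0264) and Insm1 (0.52, adjusted p = 0.042) passed the test as deposited, but not with median-ratio scaling.

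The prohormone convertase genes moved in opposite directions. Prohormones are cut by prohormone convertases in the granule: PC1/3, from Pcsk1, does the main cuts of proinsulin, and PC2, from Pcsk2, those that make glucagon. Pcsk1 (chromosome 13, 75089420 to 75134861) was at 113 and 102 RPKM against 1.86, 2.04 and 2.28 RPKM in alpha cells (log2 fold change 5.38, SE 0.12, adjusted p = 8.67e-07). Pcsk2 was at 423 and 421 against 741, 637 and 610 RPKM (-0.65, SE 0.15, adjusted p = 0.0118), so it stayed the more abundant per length of the pair in both transdifferentiated libraries. Pcsk1n, which encodes an inhibitor of PC1/3, was at 346 and 372 against 971, 766 and 558 RPKM (-1.01, SE 0.18, adjusted p = 0.00465).

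Of the 19 genes for prohormone processing and granule proteins, 10 rose, 6 fell (29.8% and 6.16% over all genes) and 3 were not called (median 0.29). With median-ratio scaling 5 rose and 7 fell (14.4% and 12.6% over all genes). The granins Chgb, at 1201 and 1270 against 399, 397 and 408 RPKM (log2 fold change 1.61, SE 0.11), and Scg2, at 2220 and 2049 against 648, 721 and 786 RPKM (1.57, SE 0.14), rose under both scalings. Chga rose as deposited (0.85, SE 0.19, adjusted p = 0.0119) and not with median-ratio scaling. Cpe, the carboxypeptidase gene that trims cut prohormones, was at 1746 and 1809 against 2210, 2053 and 1931 RPKM (-0.21, adjusted p = 0.304). Resp18, a granule protein gene, was at 1183 and 1204 against 2391, 1895 and 2010 RPKM and changed by -0.80 (SE 0.14).

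The release machinery rose in parts. Of 26 tested genes of exocytosis, 14 rose, 3 fell (29.8% and 6.16% over all genes) and 9 were not called (median 0.35). With median-ratio scaling 9 rose and 4 fell (14.4% and 12.6% over all genes). Of the 14, 3 (Sytl4, Pclo and Rab3b) passed the expression rule only through the transdifferentiated libraries, where they had to be high. After Sytl4, the active zone gene Pclo was at 24.4 and 16.8 against 3.40, 3.68 and 4.0 RPKM (log2 fold change 2.29, SE 0.22, adjusted p = 0.000279). Rab3b, a GTPase gene of secretory vesicles, was at 22.4 and 16.9 against 4.75, 4.80 and 4.65 RPKM (1.97, SE 0.12), while its relative Rab3c was at 3.21 and 3.53 against 9.48, 9.38 and 9.40 RPKM (-1.38, SE 0.26, adjusted p = 0.00591). Syt4, a synaptotagmin gene, rose by 1.57 (SE 0.19), and Syt9, another of that family of calcium sensors, fell by 0.60 (SE 0.12). Among genes of membrane fusion, Stx1a, a syntaxin gene, was at 8.44 and 10.7 against 10.8, 12.0 and 13.3 RPKM and fell by 0.35 (SE 0.11, adjusted p = 0.0408). The abundant members Snap25 and Cplx2 were not called: Snap25 was at 43.5 and 37.7 against 25.9, 30.3 and 33.8 RPKM (0.41, adjusted p = 0.0699) and Cplx2 at 150 and 142 against 136, 129 and 134 RPKM (0.13, adjusted p = 0.264).

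Receptors at the cell surface diverged in both directions. Of 33 listed genes 20 passed the expression rule, of which 12 rose, 5 fell (29.8% and 6.16% over all genes) and 3 were not called, with a median of 0.91. With median-ratio scaling 11 rose and 5 fell (14.4% and 12.6% over all genes). Glp1r, the receptor gene for the incretin GLP-1, was at 111 and 96.0 RPKM against 1.83, 2.47 and 2.59 RPKM (log2 fold change 5.21, SE 0.15, adjusted p = 1.19e-06). Gipr, the receptor gene for the incretin GIP, named outside the rule after its values were seen, was already present in alpha cells and rose less, at 29.1 and 35.9 against 11.5, 15.9 and 17.6 RPKM (1.08, SE 0.27, adjusted p = 0.0179). Prlr was at 16.7 and 16.8 against 0.242, 0.379 and 0.273 RPKM (4.40, SE 0.22).

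Adra2a, the adrenergic receptor gene through which adrenaline restrains insulin release, was at 24.1 and 19.4 against 0.652, 0.705 and 0.411 RPKM (log2 fold change 4.38, SE 0.21, adjusted p = 1.45e-05). Chrm3, a muscarinic acetylcholine receptor gene, was at 11.1 and 13.0 against 0.636, 0.826 and 0.771 RPKM (3.31, SE 0.14). Ffar1, a receptor gene for long-chain fatty acids, was at 29.4 and 33.7 against 7.68, 8.72 and 9.43 RPKM (1.79, SE 0.10).

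The receptor genes that fell were Avpr1b, Sstr2, Gpr119, Gria2 and Vipr1. Avpr1b, the vasopressin receptor gene of alpha cells, was at 5.59 and 5.85 against 39.1, 39.5 and 47.4 RPKM (log2 fold change -2.80, SE 0.23, adjusted p = 0.000138). Sstr2, through which somatostatin inhibits alpha cells, was at 1.5 and 2.37 against 13.9, 16.9 and 16.2 RPKM (-2.78, SE 0.24), while Sstr3, its relative on beta cells, rose from 23.4, 23.5 and 21.4 to 39.3 and 36.0 RPKM (0.73, SE 0.08, adjusted p = 0.000497). In the transdifferentiated libraries Sstr2 rested on 4 and 11 reads. Gpr119, a receptor gene for lipid amides, was at 12.8 and 9.35 against 36.4, 31.0 and 31.5 RPKM (-1.51, SE 0.16). Insr and Gabbr1, receptor genes for insulin and GABA, were not called (adjusted p = 0.427 and 0.689), and neither was Ffar4, a fatty acid receptor gene, at 19.0 and 14.6 against 23.8, 24.3 and 20.6 RPKM (-0.40, adjusted p = 0.18).

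**Figure D3:**
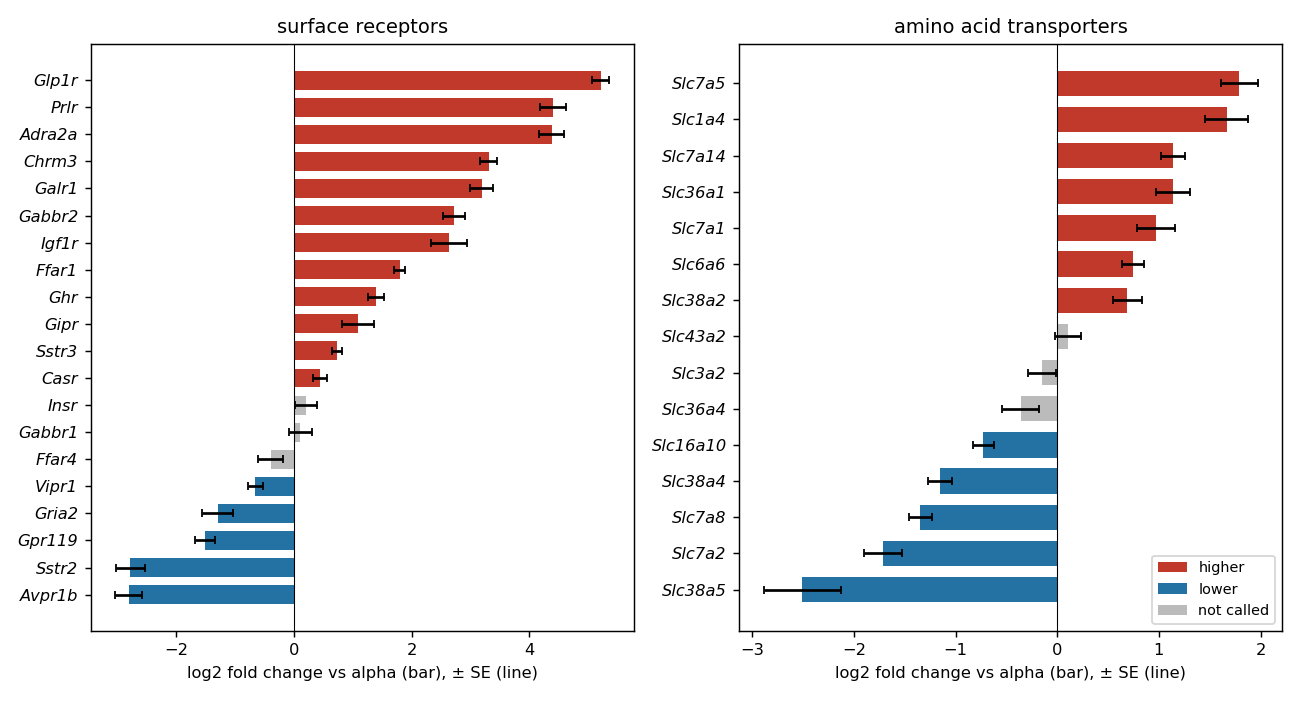
Log2 fold change against alpha cells (bars, with SE as lines) of the 20 tested receptor genes (left) and the 15 tested amino acid transporter genes (right), coloured by call. Both panels run from rises to falls, from Glp1r (5.21) to Avpr1b (-2.80) and from Slc7a5 (1.79) to Slc38a5 (-2.51).

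Of 31 listed genes of ion channels and calcium handling 22 were tested, of which 6 rose, 2 fell and 14 were not called (median 0.38). These shares are near the 29.8% and 6.16% of all genes. With median-ratio scaling 4 rose and 2 fell (14.4% and 12.6% over all genes). Trpm5, a cation channel gene of beta cells, was at 5.28 and 5.12 against 0.0605, 0.0466 and 0.0665 RPKM (log2 fold change 3.35, SE 0.23). The calcium pump genes of the endoplasmic reticulum rose: Atp2a2 was at 208 and 208 against 71.6, 81.7 and 78.5 RPKM (1.40, SE 0.14, adjusted p = 0.00034) and Atp2a3 at 102 and 101 against 46.7, 49.3 and 54.0 RPKM (1.01, SE 0.09). A pair of potassium channel genes fell, Kcnk3 from 32.9, 29.1 and 31.1 to 3.84 and 5.22 RPKM (-2.69, SE 0.23) and Kcnj3 from 6.43, 5.68 and 6.35 to 0.462 and 0.442 RPKM (-2.81, SE 0.38, adjusted p = 0.00138). In the transdifferentiated libraries Kcnj3 rested on 3 and 5 reads. Kcnj11, the pore of the ATP-sensitive potassium channel that glucose metabolism closes, was at 93.2 and 74.3 against 73.5, 66.5 and 59.6 RPKM (0.35, adjusted p = 0.0682).

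Among 37 tested genes of glucose metabolism, 16 rose, 3 fell (29.8% and 6.16% over all genes) and 18 were not called (median 0.46). With median-ratio scaling 9 rose and 3 fell (14.4% and 12.6% over all genes). Beside G6pc2 and Slc2a2, the enzymes that feed pyruvate into anaplerosis and the phosphoenolpyruvate cycle led the rises. Pcx, pyruvate carboxylase, was at 48.0 and 39.1 against 8.63, 8.23 and 8.45 RPKM (log2 fold change 2.31, SE 0.10, adjusted p = 8.96e-06). Pck2, the mitochondrial phosphoenolpyruvate carboxykinase, was at 50.3 and 62.8 against 19.2, 17.2 and 17.6 RPKM (1.59, SE 0.20).

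The 3 genes that fell had low beta means as well. Pdk4, a kinase that blocks entry of pyruvate into the citrate cycle, was at 13.3 and 14.3 against 127, 108 and 97.9 RPKM (log2 fold change -2.96, SE 0.27, adjusted p = 0.000212), with a beta mean of 0.620 RPKM. Hk1, a hexokinase with high affinity for glucose, was at 1.88 and 1.41 against 6.42, 10.1 and 7.23 RPKM (-1.93, SE 0.28, adjusted p = 0.00192). Fbp1, fructose bisphosphatase, was at 36.4 and 33.6 against 67.6, 78.2 and 83.8 RPKM (-1.12, SE 0.12).

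Some glycolytic enzyme genes spread widely within groups and were not called. Aldoa was at 312 and 406 against 180, 317 and 193 RPKM (0.71, SE 0.27, adjusted p = 0.0779) and Tpi1 at 87.0 and 143 against 82.0, 150 and 82.3 RPKM (0.18, SE 0.33, adjusted p = 0.713). The second alpha library was the highest alpha library for these genes and for Ldha (12.4, 37.5 and 19.1 RPKM), and it lay between the transdifferentiated libraries for Aldoa and above both for Tpi1 and Ldha.

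Oxidative phosphorylation showed no rise that held across scalings. Of 29 tested genes 9 rose and 0 fell as deposited (median 0.22, against 0.20 over all genes), where 29.8% and 6.16% of all genes did. With median-ratio scaling 0 rose and 1 fell (14.4% and 12.6% over all genes). Cox5a, a cytochrome oxidase subunit gene, was at 33.8 and 46.8 against 21.9, 27.3 and 25.1 RPKM (0.66, SE 0.15), and Atp5b, of the ATP synthase, at 158 and 179 against 177, 162 and 150 RPKM (0.05, adjusted p = 0.762).

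Genes of the integrated stress response were higher. In this response kinases that sense unfolded protein or a lack of amino acids slow translation, and the factor ATF4 then switches on genes for amino acid supply, tRNA charging and feedback. ATF4 acts with C/EBP partners at elements of the form TGATGNAA, where N is any base. These letters, on either strand and searched apart from TAAT, were found in 8 of the 23 genes of the list that have a RefSeq promoter window (250 bases before to 50 after the start), which is 34.8%, against 4.51% of 27025 windows and 2.52% of the 6259 windows of tested genes. The list was made of known genes of this response, so the higher share follows from that choice and is no test. The matches are shown in 30-base windows, with the match in capitals, for the 5 called genes and for Nupr1 and Atf3, which were not called.
Asns (chr6:7693214-7693243, minus strand): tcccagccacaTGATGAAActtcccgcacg
Chac1 (chr2:119351038-119351067, plus strand): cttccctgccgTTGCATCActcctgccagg
Slc1a4 (chr11:20332699-20332728, minus strand): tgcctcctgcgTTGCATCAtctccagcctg
Trib3 (chr2:152344028-152344057, minus strand): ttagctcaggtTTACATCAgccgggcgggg
Vldlr (chr19:27216809-27216838, plus strand): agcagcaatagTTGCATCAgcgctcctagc
Nupr1 (chr7:126625562-126625591, minus strand): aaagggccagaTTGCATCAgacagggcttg
Atf3 (chr1:191183425-191183454, minus strand): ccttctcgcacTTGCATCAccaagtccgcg
The other gene with matches, Slc7a11, lay below the expression rule.

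Of 26 listed genes of the response 24 were tested, of which 20 rose, 0 fell (29.8% and 6.16% over all genes) and 4 were not called. The median log2 fold change was 1.77. Of the 20, 6 passed the expression rule only through the transdifferentiated libraries. With median-ratio scaling 18 rose and 0 fell (14.4% and 12.6% over all genes), and the median was 1.55. Trib3, a pseudokinase gene that feeds back on ATF4, was at 32.1 and 53.2 RPKM against 2.62, 3.08 and 1.80 RPKM in alpha cells (3.82, SE 0.31, adjusted p = 0.000142). Chac1, whose product degrades glutathione, was at 47.1 and 57.2 against 5.06, 3.82 and 2.82 RPKM (3.60, SE 0.31). Enzymes of serine and folate metabolism rose with them: Aldh1l2 was at 17.5 and 29.1 against 1.59, 1.56 and 1.43 RPKM (3.44, SE 0.26) and Phgdh, the first step of serine synthesis, at 5.17 and 8.91 against 0.405, 0.390 and 0.285 RPKM (3.04, SE 0.29).

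Some well known members outside the naming rule are given for their roles, picked after their values were seen. Atf4 itself was at 229 and 305 against 125, 101 and 103 RPKM (log2 fold change 1.25, SE 0.18, adjusted p = 0.00181). Ddit3, which encodes CHOP, was at 65.2 and 81.1 against 16.0, 19.0 and 13.4 RPKM (2.17, SE 0.21), and Asns, asparagine synthetase, at 93.4 and 144 against 28.5, 29.2 and 29.2 RPKM (1.94, SE 0.17).

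A few members were not called. Nupr1, a stress-induced nuclear protein gene, was at 63.3 and 58.9 against 2.31, 43.4 and 16.9 RPKM (2.23, SE 0.96, adjusted p = 0.108), and its alpha libraries spread most of the list. Both transdifferentiated libraries were above them, as they were for Ppp1r15a. The share of all genes with such a gap is not given here, so the gap carries no weight. Ppp1r15a, whose product ends the translation block, was at 39.7 and 55.0 against 31.2, 19.8 and 27.8 RPKM (0.78, adjusted p = 0.121). Slc3a2, a partner chain of amino acid exchangers, was at 82.9 and 101 against 114, 97.7 and 93.8 RPKM (-0.15, adjusted p = 0.432).

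Cytosolic aminoacyl-tRNA synthetases, which charge tRNAs with amino acids and are in part ATF4 targets, also rose. Of 20 tested genes 14 rose, 0 fell (29.8% and 6.16% over all genes) and 6 were not called, with a median of 0.93. With median-ratio scaling 11 rose (14.4% over all genes), with a median of 0.70. TGATGNAA was found in 5 of the 13 genes with a promoter window (38.5%), all 5 called higher as deposited, though Gars was not called with median-ratio scaling. Since some of these genes are known ATF4 targets, that share is no test either. Windows of 4 of them are shown.
Gars (chr6:55037960-55037989, plus strand): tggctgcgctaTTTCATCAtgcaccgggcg
Iars (chr13:49682126-49682155, plus strand): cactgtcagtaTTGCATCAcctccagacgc
Tars (chr15:11399655-11399684, minus strand): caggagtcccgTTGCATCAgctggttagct
Yars (chr4:129189895-129189924, plus strand): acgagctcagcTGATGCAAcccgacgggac
Aars, for alanine, was at 45.7 and 51.6 against 14.7, 13.7 and 12.4 RPKM (log2 fold change 1.80, SE 0.14, adjusted p = 0.000106). Cars, for cysteine, was at 21.5 and 29.9 against 6.91, 7.11 and 6.58 RPKM (1.79, SE 0.15), and Wars, for tryptophan, at 43.4 and 48.7 against 14.4, 16.1 and 15.4 RPKM (1.54, SE 0.11). Kars (lysine, 0.21), Dars (aspartate, -0.02) and Rars (arginine, 0.35) were not called (adjusted p = 0.148, 0.906 and 0.113).

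Both stress groups differed between the transdifferentiated libraries. The second, female library was above the first, male one for 23 of 24 genes of the response and for 19 of 20 synthetases, against 46.9% of all genes tested. The difference from the alpha libraries of the same sex had a median of 1.44 in males and 2.18 in females for the response, and of 0.77 and 1.25 for the synthetases, against 0.22 and 0.20 over all genes. With 1 transdifferentiated library per sex, sex and library cannot be told apart. The beta mean was above both transdifferentiated libraries for 19 of 24 genes of the response, which beta library 1 largely set: beta libraries 1, 2 and 3 taken singly were above both for 22, 11 and 11 genes. For the synthetases the mean was above for 16 of 20, and the single libraries for 17, 13 and 11.

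**Figure D4:**
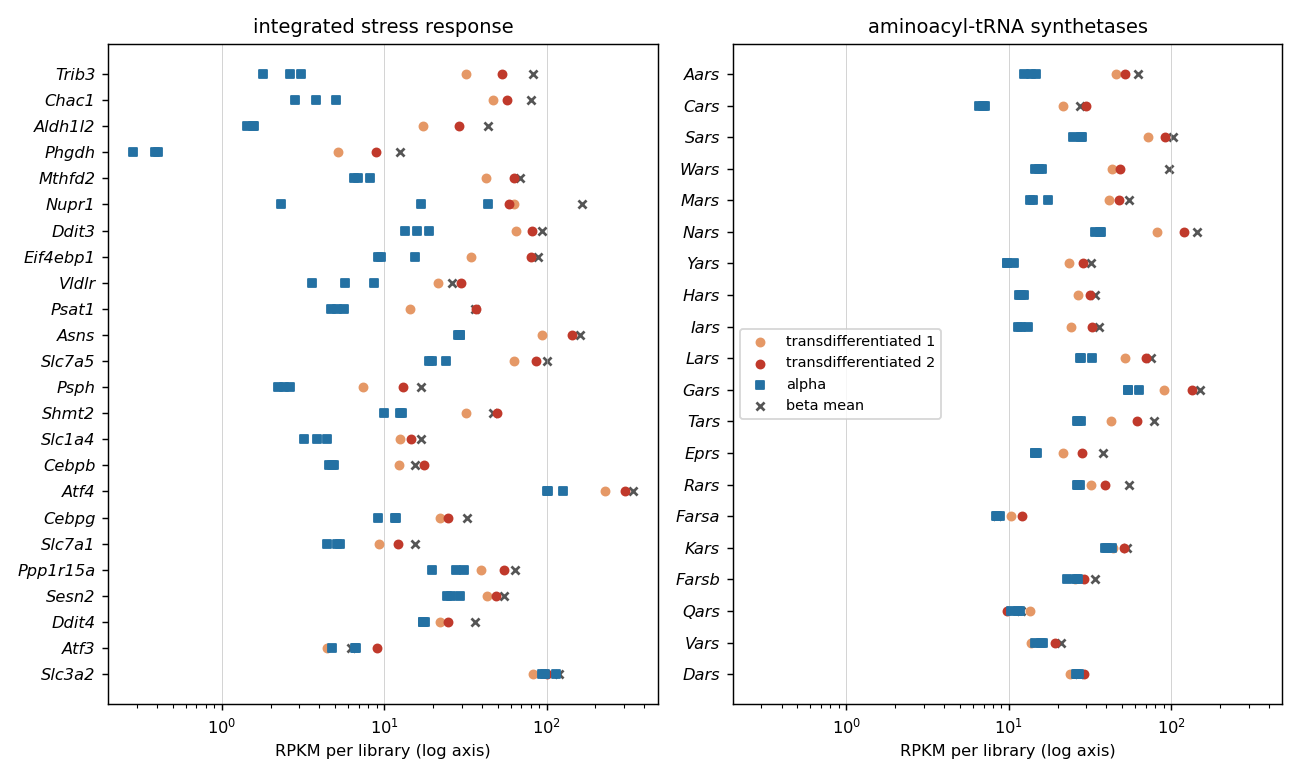
RPKM (log axis) of the 24 tested genes of the integrated stress response (left) and the 20 aminoacyl-tRNA synthetases (right) in transdifferentiated library 1 (male, light circles) and 2 (female, dark circles), the 3 alpha libraries (squares) and as the beta mean (crosses). The dark circle lies to the right of the light one for 23 of 24 and 19 of 20 genes.

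Genes of protein folding and degradation in the endoplasmic reticulum rose less. Of 27 tested, 19 rose, 0 fell (29.8% and 6.16% over all genes) and 8 were not called (median 0.51). With median-ratio scaling 10 rose (14.4% over all genes), with a median of 0.28. Ero1lb, an oxidase gene of islets that forms disulfide bonds in proinsulin, was at 105 and 112 against 21.3, 24.8 and 24.4 RPKM (log2 fold change 2.16, SE 0.12, adjusted p = 2.07e-05). Herpud1 and Edem1 serve the disposal of misfolded proteins. Herpud1 was at 104 and 106 against 42.2, 34.6 and 34.2 RPKM (1.51, SE 0.14), and Edem1 at 14.4 and 15.3 against 4.24, 6.41 and 5.76 RPKM (1.38, SE 0.17). The most abundant members that were not called, chosen by the naming rule for that, were Calr, Hsp90b1 and Pdia3: Calr was at 177 and 204 against 175, 190 and 180 RPKM (0.06, adjusted p = 0.662), Hsp90b1 at 210 and 260 against 206, 229 and 221 RPKM (0.07, adjusted p = 0.628) and Pdia3 at 296 and 346 against 313, 313 and 305 RPKM (0.04, adjusted p = 0.824).

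The next steps of the secretory route moved little once scaling was considered. Over all genes 29.8% rose and 6.16% fell, and 14.4% and 12.6% did with median-ratio scaling. Of 27 genes for entry into the endoplasmic reticulum 9 rose and 0 fell (median 0.28), and 3 rose and 1 fell with median-ratio scaling. Sec11c, a signal peptidase subunit gene, was at 35.7 and 48.2 against 21.9, 22.8 and 22.1 RPKM (0.87, SE 0.13, adjusted p = 0.00198). Of 27 genes for transport to the Golgi 14 rose and 2 fell (median 0.37), and 3 rose and 2 fell with median-ratio scaling. Lman1 and Mcfd2, whose products form 1 cargo receptor, rose together, by 0.71 (SE 0.09) and 0.96 (SE 0.12), under both scalings. Tmed3, a cargo receptor gene, and Kdelr3, a retrieval receptor gene, changed by -0.66 (SE 0.12) and -1.14 (SE 0.17). In the transdifferentiated libraries Kdelr3 rested on 14 and 19 reads. It was not called by limma's voom on recovered reads (adjusted p = 0.0637).

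Amino acid transporters split. Of 23 listed genes 15 passed the expression rule, of which 7 rose, 5 fell (29.8% and 6.16% over all genes) and 3 were not called. With median-ratio scaling 7 rose and 6 fell (14.4% and 12.6% over all genes). Slc7a5, which exchanges large neutral amino acids, was at 63.1 and 86.5 against 18.9, 23.9 and 19.6 RPKM (log2 fold change 1.79, SE 0.18, adjusted p = 0.000377), and Slc1a4, for alanine and serine, at 12.5 and 14.7 against 3.19, 4.46 and 3.88 RPKM (1.67, SE 0.21). Alpha cells respond to amino acids, and their own transporters fell: Slc38a5, a glutamine transporter gene, was at 6.81 and 4.12 against 36.4, 23.3 and 37.0 RPKM (-2.51, SE 0.38, adjusted p = 0.00213) and Slc7a2, an arginine transporter gene (chromosome 8, 40862341 to 40922070), at 47.9 and 34.1 against 116, 143 and 146 RPKM (-1.71, SE 0.19). Slc7a8 (-1.35, SE 0.11) and Slc38a4 (-1.15, SE 0.12) also fell.

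Antioxidant genes rose at several members. Of 22 tested 14 rose, 3 fell (29.8% and 6.16% over all genes) and 5 were not called (median 0.50). With median-ratio scaling 10 rose and 3 fell (14.4% and 12.6% over all genes). The metallothionein gene Mt1, which binds zinc, was at 1620 and 2880 against 441, 522 and 407 RPKM (log2 fold change 2.23, SE 0.24, adjusted p = 0.000475) and Mt2 at 1061 and 1992 against 338, 395 and 351 RPKM (1.98, SE 0.23). Hmox1, heme oxygenase, was at 57.6 and 103 against 14.1, 19.4 and 14.6 RPKM (2.21, SE 0.33). For all 3 the female transdifferentiated library was the higher. Nqo1, a quinone reductase gene, rose by 1.89 (SE 0.32), while Prdx4, the peroxiredoxin of the endoplasmic reticulum, fell by 0.78 (SE 0.12, adjusted p = 0.00238).

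Genes of sterol and fatty acid synthesis went both ways. Of 24 tested genes 4 rose, 7 fell (29.8% and 6.16% over all genes) and 13 were not called (median -0.28). With median-ratio scaling 2 rose and 10 fell (14.4% and 12.6% over all genes). Acly, which makes cytosolic acetyl-CoA from citrate, was at 648 and 594 against 218, 251 and 264 RPKM (log2 fold change 1.34, SE 0.12, adjusted p = 0.000201). Sqle, an early enzyme gene of the sterol branch, was at 38.1 and 47.9 against 24.3, 20.9 and 22.4 RPKM (0.88, SE 0.13), while Hmgcs1 and Mvd, which act before it, fell by 0.52 (SE 0.15) and 0.99 (SE 0.19). Scd1, a fatty acid desaturase gene, was at 2.99 and 2.48 against 7.99, 6.27 and 7.92 RPKM (-1.30, SE 0.20), and Fasn, fatty acid synthase, at 17.8 and 16.2 against 26.9, 23.0 and 24.0 RPKM (-0.53, SE 0.12, adjusted p = 0.0122).

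Ribosomal protein genes had no rise, with 2 higher, 3 lower (29.8% and 6.16% over all genes) and 31 not called among 36 tested (median -0.04). With median-ratio scaling 10 were lower and 0 higher (12.6% and 14.4% over all genes). Many of these genes share reads with processed copies, so their levels are uncertain, and 7 listed members lay under the expression rule.

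Counts for other groups are given beside 29.8% higher and 6.16% lower over all genes (14.4% and 12.6% with median-ratio scaling). Of 16 immediate early genes 3 rose and 2 fell (2 and 5 with median-ratio scaling). Klf4 was at 4.74 and 6.35 against 14.1, 18.7 and 14.9 RPKM (-1.46, SE 0.23) and Fos at 96.7 and 107 against 100, 52.8 and 102 RPKM (0.26, adjusted p = 0.577). Of 7 tested cell cycle genes of 20 listed 2 rose, among them Ccnd1, cyclin D1 (0.58, SE 0.11), and proliferation genes such as Mki67 and Top2a lay under the expression rule. Of 16 genes of MHC class I and the interferon response 1 rose, the peptide loading factor gene Tapbp (0.85, SE 0.17, adjusted p = 0.00825). Of 16 genes of adhesion and axon guidance 3 rose and 4 fell (2 and 7 with median-ratio scaling): Gjd2, the connexin gene that couples beta cells, was at 110 and 87.5 against 10.6, 8.43 and 9.68 RPKM (3.31, SE 0.13), Cdh1, E-cadherin, at 133 and 110 against 41.1, 48.1 and 47.0 RPKM (1.43, SE 0.15), and Cldn6, a claudin gene, fell by 1.45 (SE 0.14).

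Of 15 listed genes linked to beta cell immaturity 8 were tested, of which 3 rose (Npy, Cd24a and Nnat) and 1 fell (Hk1), beside 29.8% and 6.16% of all genes. Npy, the neuropeptide Y gene, rested on 1 library, at 7.10 and 34.2 against 2.74, 1.45 and 1.13 RPKM (2.71, SE 0.75, adjusted p = 0.0272), and was called in 13 of 21 alternatives. Of 17 genes normally silent in beta cells 2 were tested: Oat, ornithine aminotransferase, was at 5.22 and 4.71 against 22.9, 28.3 and 33.2 RPKM (-2.38, SE 0.23, adjusted p = 0.000278) and Ldha was not called (adjusted p = 0.305).

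**Figure D5:**
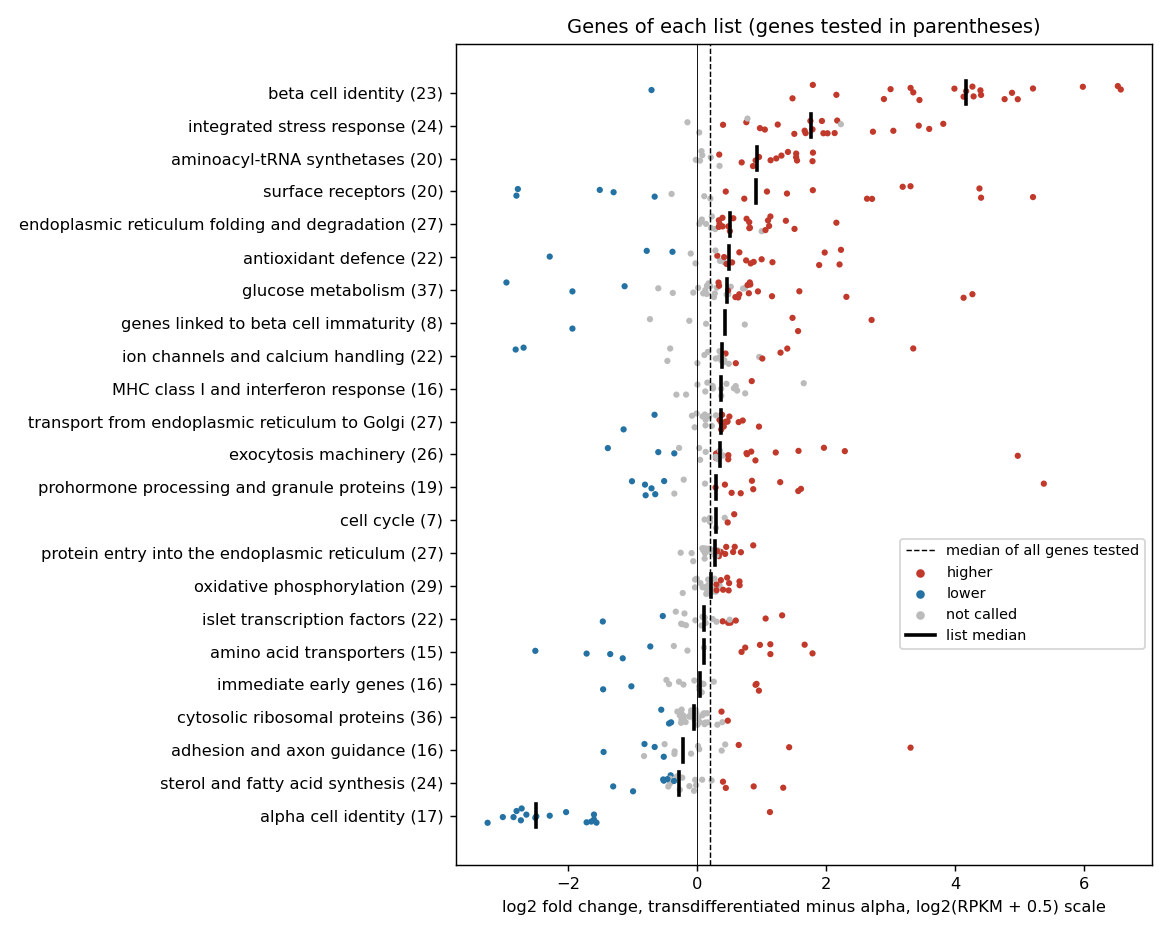
Log2 fold change of every tested gene of each list (points, coloured by call), with the list's median as a bar and the median of all 8235 genes (0.20) as a dashed line. Lists run from beta cell identity (median 4.17) to alpha cell identity (-2.49); with median-ratio scaling the drawn medians of islet transcription factors, oxidative phosphorylation, amino acid transporters and immediate early genes turn from above 0 to below it.

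Markers of other pancreatic cells were read in every library. The summed level of 14 acinar markers was 1140 and 394 RPKM in transdifferentiated libraries and 56.7, 3220 and 770 RPKM in alpha libraries, so alpha libraries spanned the whole range, and 0 of the 14 were called. The sum of 12 immune markers was 38.8 and 22.5 against 10.8, 29.8 and 13.5 RPKM, that of 12 endothelial markers 12.9 and 6.91 against 5.04 to 7.71 RPKM, and that of 12 stellate and fibroblast markers 5.24 and 3.44 against 2.94 to 4.62 RPKM. Of these 36 genes only Cd68, an immune marker, passed the expression rule, and it was not called (adjusted p = 0.772). Of the immune markers, 1 and 6 were listed at 0 in the transdifferentiated libraries. Among those not tested, Cd74 was at 12.0 and 2.62 against 1.65, 2.22 and 1.86 RPKM. Like Cd74, H2-Aa, H2-Eb1 and Fcer1g were higher in both transdifferentiated libraries than in every alpha library. Ptprc, H2-Ab1, Ctss, Tyrobp, Csf1r, Lyz2 and Laptm5 were not.

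Of the hormone genes of minor islet cells, 3 were tested and none was called by limma as deposited. With quantile normalization 1 of the pair Ppy and Pyy was called lower. The median log2 fold change of that pair was then -1.32, against 0.01 as deposited. Ppy, pancreatic polypeptide, was at 6155 and 4419 against 6215, 4126 and 4322 RPKM (0.14, SE 0.37, adjusted p = 0.802), Pyy, peptide YY, at 5283 and 3829 against 6807, 3833 and 4547 RPKM (-0.12, SE 0.35, adjusted p = 0.826), and Sst, somatostatin, at 2885 and 2749 against 2845, 1000 and 1357 RPKM (0.80, SE 0.52, adjusted p = 0.267). Ghrl, the ghrelin gene, lay under the expression rule, at 0.745 and 0.428 against 3.01, 1.24 and 0.986 RPKM, and was not tested. Of 9 tested duct markers 6 rose and 1 fell, beside 29.8% and 6.16% of all genes. With median-ratio scaling 2 rose and 1 fell, beside 14.4% and 12.6%. Tspan8, a tetraspanin gene also found in alpha cells, was at 86.6 and 84.0 against 24.7, 22.4 and 25.7 RPKM (1.80, SE 0.18), and Spp1, osteopontin, fell from 668, 1686 and 1271 to 180 and 225 RPKM (-2.48, SE 0.39, adjusted p = 0.00261). Defining duct genes Krt19, Sox9 and Cftr lay under the expression rule. The part of other cell types in these results was not tested.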

How the data were processed

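Bulk RNA-seq libraries of sorted mouse islet cells (2 transdifferentiated, 3 alpha, 3 beta) were read from 1 table. Per the submitters' processing notes, the tools were STAR 2.5, featureCounts and edgeR 3.14.0 on GRCm38.p4, and the authors deposited RPKM per gene; the sources used here do not name the annotation. The 4 entries with repeated names were left out, and 27 entries carry calendar dates in place of gene names. The deposited RPKM keep read steps: with GENCODE M21 exon unions, 78.5% of 25349 matched genes came out as whole reads (tolerance 0.01 read) in these libraries, lengths of a further 6878 genes were solved from the steps, and the sums gave the depths printed in the report. Transdifferentiated libraries were the shallowest, so low genes are the least precise there.

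Values were tested as log2(RPKM + 0.5) with limma 3.58.1 in R 4.3.3, with all 8 libraries, terms for group and sex, a prior variance that follows the mean level and Benjamini-Hochberg adjustment over 8235 genes. Some genes and sequences are not reported here. Genes were called at an adjusted p under 0.05. The script was tested on simulated data. The text names the hormone markers, the 12 largest called changes each way among genes with 10 RPKM or more in the higher group and no overlap of libraries, the identity, transcription factor and marker lists, and from each other list up to 4 called members each way and up to 3 abundant members not called. Asns, Atf3, Atf4, Chga, Ddit3, Gars, Gipr, Iars, Pcsk2, Tars, Vipr1, Vldlr and Yars were added after their values were seen. The genes, lists and comparison were chosen with earlier results of these data known. Alternatives were 2 other pseudocounts, 3 other filters, other terms and libraries in the fit, 3 scalings, no variance trend, limma's voom on recovered reads, and leaving out each library.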

Additional observations from a re-analysis of the deposited data

How the results depend on the processing

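Against 2453 genes called higher and 507 lower as deposited, other settings gave other counts. Median-ratio scaling gave 1182 and 1036, quantile normalization 1256 and 1286, and scaling by the RPKM sum without 8 hormone and carrier genes, chosen after seeing the data, 1081 and 800. Filters that tested other numbers of genes gave 877 lower (RPKM of at least 1, 12835 genes), 1307 lower (no filter, 24791 genes), and 1610 higher and 288 lower (mean RPKM of at least 10, 4815 genes). With only the 5 libraries compared 1618 genes were higher, and limma's voom on recovered reads called 309 lower; the cause was not tested. Leaving out 1 library at a time gave 1623 to 2264 higher and 340 to 493 lower, with the fewest higher without the female alpha library; without 1 transdifferentiated library the other was taken to vary like the other groups. Of the alternatives for single named genes, 5056 kept direction and side of the threshold, 230 lost and 72 gained the call. The acinar gene Reg1 changed sign, from -0.11 to 2.93 (limma, adjusted p = 0.0487) with a term for the letter b; the cause was not tested. With no filter Ins2, Gcg and Iapp, at log2 fold changes of 6.57, -3.25 and 4.29 as before, were not called (limma, adjusted p = 0.208, 0.368 and 0.17). Of 1876 called genes fitted in all 21 alternatives, 725 were called the same way in each, 585 higher and 140 lower. No paired analysis was run beyond the sex term. The title numbers differ between the groups, and the labels do not say whether groups of 1 sex came from the same pool. By expression class the median SE was 0.16, 0.12, 0.11, 0.12 and 0.17, from under 10 RPKM to 300 RPKM or more. The transdifferentiated libraries differed most from each other under 10 RPKM (median 0.25, log2). The part of depth in this was not tested.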

Other observations

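Some genes of the lists reached 5 RPKM in at most 1 of the 5 libraries and were not tested, so their values are given alone. Gcgr, the glucagon receptor gene, was at 6.44 and 4.40 RPKM in transdifferentiated cells and at 0.177, 0.0852 and 0.271 RPKM in alpha cells. Ffar3, a receptor gene for short-chain fatty acids, was at 9.56 and 4.74 against 1.01, 1.45 and 1.34 RPKM. Cat, the catalase gene, was at 4.61 and 3.53 against 0.474, 1.08 and 0.787 RPKM. In these 3 genes every transdifferentiated library was above every alpha library. The share of all genes with such a gap is not given here, so it carries no weight.

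Adrb1, an adrenergic receptor gene, was listed at 0 in both transdifferentiated libraries and at 4.85, 4.43 and 3.79 RPKM in alpha cells. Neurog3, which starts endocrine development, was low in all 5, at 2.61 and 3.0 against 1.36, 0.339 and 0.783 RPKM. Slc7a11, the cystine transporter gene with TGATGNAA in its promoter window, was at 0.289 and 1.13 against 0.0389, 0.0374 and 0.0357 RPKM. Pax4, a factor of beta cell development, was listed at 0 in every library.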
